A study of Mus musculus with 14 samples.

Results

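Central regulatory T cells (cTregs) labelled Atg14KO were compared with cTregs labelled Atg14 heterozygous, which served as controls, on 7 Clariom S mouse arrays, 3 labelled KO and 4 control, out of 14 arrays in the whole set. These 7 were chosen by their labels alone, and every transcript cluster with a gene symbol, 22203 in all, was read. The other 7 arrays hold effector Tregs (eTregs), 3 labelled KO and 4 control, and enter here for the shared fit and for the test of whether an effect differed between subsets. All donors of these cells carried the Foxp3Cre allele, which drives Cre recombinase in cells that express Foxp3. The group labelled KO came from Foxp3CreAtg14fl/fl marrow and the control group from Foxp3CreAtg14+/fl marrow, so the controls carried 1 floxed allele as well and no group without Cre was compared. CD45.2+ marrow of either genotype had been mixed with CD45.1+ wild-type marrow and given to irradiated Rag1-/- hosts, which make no T or B cells of their own. cTregs had been sorted from lymphoid tissue (spleen and peripheral lymph nodes in the design notes, spleen in the methods) as CD4+Foxp3-YFP+ cells low in CD44, with a further surface marker in the gate. The labels do not say whether 1 array holds 1 mouse or a pool, nor do they give an age, so P values measure the spread between these arrays.

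Atg14 is the subunit that directs complex I of the lipid kinase Vps34 to sites of autophagosome formation. There the kinase makes phosphatidylinositol 3-phosphate, a lipid that recruits the machinery by which a cell encloses and digests its own content. cTregs are the resting, recirculating part of the Treg pool, low in CD44, from which eTregs arise after stimulation.

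Signals are log2 values, so a change of 1 is a doubling. The array medians lay between 8.77 and 8.89 in the 7 cTreg arrays, the medians of background probes between 6.00 and 6.30, and the correlation between any pair of these arrays between 0.984 and 0.993. KO cTreg 1 stood apart. On the first principal component of the 7 arrays, which held 32.3% of the variance, it lay at -36.49 while the other arrays lay between -8.78 and 12.26. Counts and values that rest on it are therefore given without it as well.

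None of the sort genes passed a threshold. Foxp3, the transcription factor that defines Tregs, was at 12.73, 13.07 and 12.86 in the arrays labelled KO and at 12.76, 12.87, 12.80 and 12.82 in controls. Cd44, by which the subsets were gated, was at 9.14, 9.86 and 9.21 in KO cTregs and at 9.57, 9.46, 9.62 and 9.66 in controls. KO cTreg 1 and 3 lay below all controls and KO cTreg 2 above them. Il2ra, which encodes the alpha chain of the interleukin 2 receptor, had a signal of 7.47 to 8.44. The changes from control to KO were 0.07 for Foxp3 (95% interval -0.16 to 0.31), -0.18 for Cd44 (-0.62 to 0.26) and -0.11 for Il2ra (-0.66 to 0.44). Without KO cTreg 1, 2 or 3 the change of Cd44 was -0.045, -0.40 or -0.080. The 4 measured Y-linked genes had list means of 5.59 to 5.90 in cTregs, under the background medians, with Ddx3y alone above them at 6.47 to 7.07.

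Atg14 itself was not lower in the arrays labelled KO. Its signal was 9.24, 9.33 and 9.29 in the cTreg arrays labelled KO and 9.26, 8.96, 8.64 and 8.89 in the control arrays. Control cTreg 1 lay within the range of the KO group and the other 3 controls below it. The mean was higher by 0.35 in the arrays labelled KO (exact two-sided permutation p = 0.0857 over 35 splits, the smallest possible being 0.0286). In limma the adjusted P was 0.9999. Which exons its probes read was not analysed here, so a signal outside the floxed part cannot check the label. The paper reports that quantitative PCR verified Atg14 deletion in total Foxp3-YFP+ Tregs of Foxp3CreAtg14fl/fl mice. Those were other samples than these arrays. "KO" below names the label, and each direction is drawn between labels.

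Few transcript clusters separated the genotypes in cTregs. At the study threshold, an absolute log2 change of at least 0.5 with an unadjusted P below 0.05 in limma, 43 transcript clusters were higher in the arrays labelled KO (0.194% of those tested) and 85 were lower (0.383%). Subtracting array medians or 75th percentiles moved the share that was higher from 33.6% to 22.8% or 45.5%, and leaving out KO cTreg 1 moved it to 52.3%. The count of 128 became 220 without KO cTreg 2 and 314 without KO cTreg 3. At any size of change, 440 were higher (1.98%) and 450 lower (2.03%) with an unadjusted P below 0.05. Arrays of the groups did not overlap for 600 transcript clusters higher in KO (2.7%) and 521 lower (2.35%). A random split of the 7 arrays gives each of these outcomes in 1 of 35 cases, a share of 0.0286. Neither count exceeds that share, so a lack of overlap does not by itself set a gene apart. Among the 128 at the study threshold, 74 had no overlap. In the same 128, 13 changed by 1 or more on the log2 scale. In 9 the mean of at least 1 group was below the background median of 6.14, and in 2 of these both means were.

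**Figure D1:**
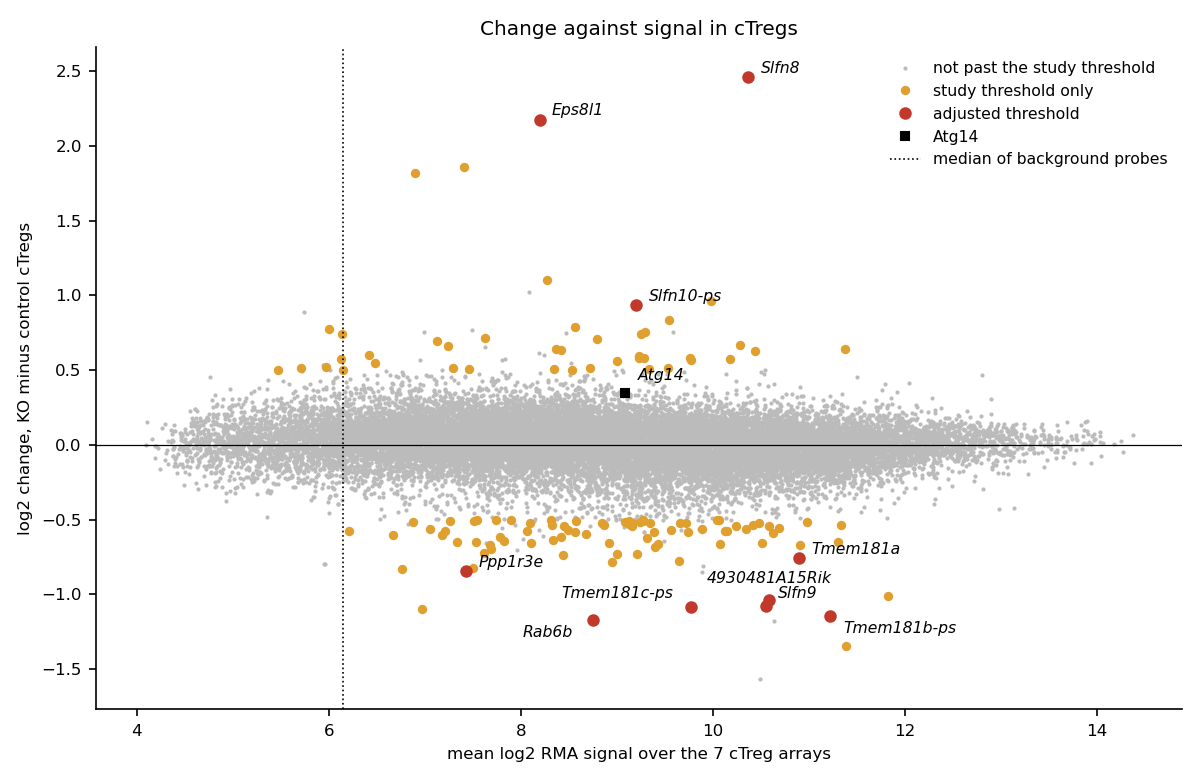
The log2 change from control to KO cTregs (vertical axis) is plotted against the mean log2 signal over the 7 cTreg arrays (horizontal axis) for each of the 22203 transcript clusters. Slfn8 and Eps8l1 stand above the rest of the called genes, 7 called genes lie below 0 between -0.76 and -1.17, and Atg14 lies inside the cloud at 0.35.

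With P values adjusted over all 22203 transcript clusters, 10 passed (0.045%), 3 higher and 7 lower in the arrays labelled KO. None of the 10 had overlapping arrays. They are Slfn8, Eps8l1 and the pseudogene Slfn10-ps on the higher side, and Rab6b, the pseudogenes Tmem181b-ps and Tmem181c-ps, Slfn9, 4930481A15Rik, Ppp1r3e and Tmem181a on the lower side. The calls of Slfn8, Eps8l1 and Tmem181b-ps were kept under every alternative that tested them, and each of the other 7 was lost in at least 4 of them. With 75th percentiles subtracted the calls of Slfn9 and Rab6b (limma adjusted P 0.0528 for both) and Slfn10-ps (0.0666) were lost. Subtracting medians ended those of Slfn10-ps (0.0922) and Tmem181c-ps (0.102), and quantile normalisation those of Slfn9 and Tmem181c-ps (0.0514 for both). A fit of the cTreg arrays alone did not call Rab6b (0.108), Ppp1r3e or Tmem181c-ps (0.0652 for both).

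**Figure D2:**
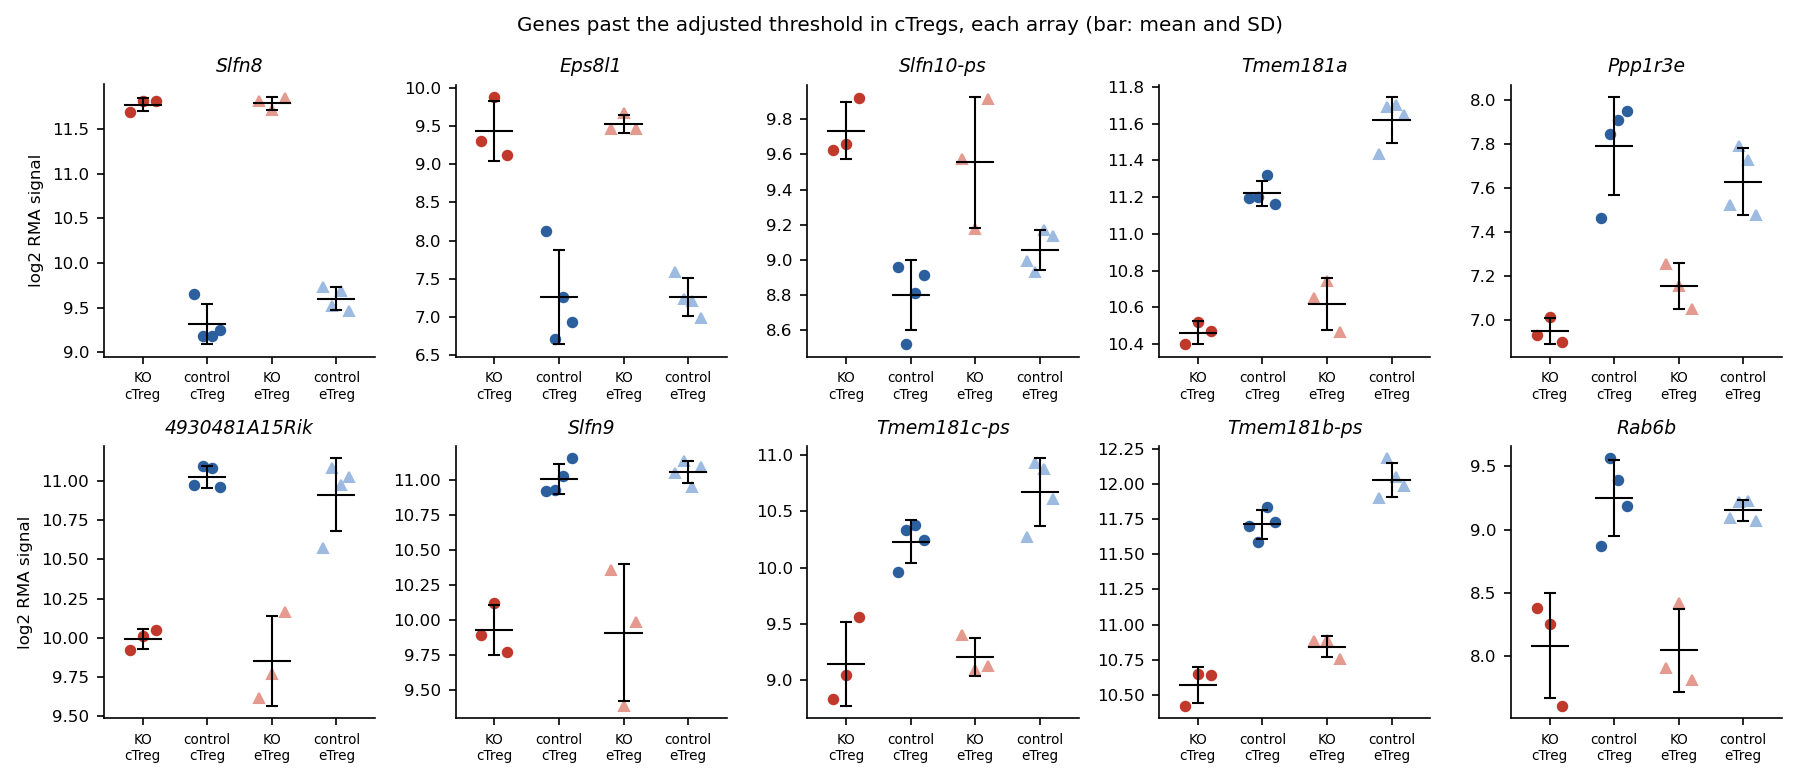
Log2 signal (vertical axis, scaled to each gene) of the 10 genes past the adjusted threshold in cTregs, 1 point per array, with the mean and SD of each group. Circles are cTregs and triangles eTregs; in each panel the KO cTreg points lie wholly above or wholly below the control cTreg points, as for Slfn8, at 11.69 to 11.82 against 9.18 to 9.65.

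Slfn8 rose the most. It belongs to the Schlafen family, a cluster of genes expressed in lymphocytes, many of them inducible by interferon, whose products have been linked to T cell quiescence and RNA cleavage. Its signal was 11.69, 11.81 and 11.82 in KO cTregs and 9.65, 9.18, 9.18 and 9.24 in control cTregs. The groups were far apart, with control cTreg 1 the highest control. The change was 2.46 (95% interval 2.20 to 2.72, limma adjusted P = 2.78e-08), a 5.51-fold difference. In eTregs it was 2.19, and the difference between subsets did not pass the test (0.27, 95% interval -0.09 to 0.64).

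Its neighbours in the RefSeq gene order moved with opposite signs. Slfn9, directly before it, was at 9.90, 10.13 and 9.77 in KO cTregs and at 10.93, 10.93, 11.03 and 11.16 in controls. All KO arrays were below all controls, and the change was -1.08 (limma adjusted P = 0.0326). Slfn10-ps, directly after it, was at 9.62, 9.66 and 9.92 against 8.96, 8.52, 8.81 and 8.91. This pseudogene was higher in each KO array than in each control, by 0.93 in the mean (limma adjusted P = 0.0498). Both calls were narrow. Slfn9 lost its call without any 1 cTreg array (adjusted P 0.0735 to 0.232) or any 1 control eTreg array (0.0554 to 0.0661). Slfn10-ps lost its call without any 1 cTreg array (0.0807 to 0.355), any 1 control eTreg array (0.0775 to 0.0936) or KO eTreg 1 (0.0547).

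Of the 10 Schlafen genes measured, 2 were higher and 3 lower at an unadjusted P below 0.05, against 1.98% and 2.03% of all clusters. The other pair, Slfn2 and Slfn5, changed by -0.35 (95% interval -0.61 to -0.09) and -0.30 (-0.54 to -0.06). Slfn2 was at 11.12, 11.54 and 11.53 in KO cTregs against 11.52 to 11.92 in controls, and Slfn5 at 11.65, 11.88 and 11.54 against 11.83 to 12.11, so both overlapped between groups. Slfn1, Slfn3, Slfn4, Slfn14 and Slfnl1 changed by -0.14 to 0.03. The 17 genes in order around Slfn8 that were plotted held no other gene past the study threshold. This window, like the ones around Tmem181a and Atg14, was laid after the values had been seen.

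The promoters of Slfn8 and Slfn9 are shown because the pair lie side by side and moved in opposite directions. RefSeq on GRCm38.p6 gives the 250 bases before the first of 2 listed starts of Slfn8 (chr11:83020811-83021060, minus strand) and of Slfn9 (chr11:82991831-82992080, minus strand). Capitals mark a match to an interferon-stimulated response element, spelt GAAA, any 2 bases, GAAA and searched on both strands (TTTC, any 2 bases, TTTC in these windows).
Slfn8: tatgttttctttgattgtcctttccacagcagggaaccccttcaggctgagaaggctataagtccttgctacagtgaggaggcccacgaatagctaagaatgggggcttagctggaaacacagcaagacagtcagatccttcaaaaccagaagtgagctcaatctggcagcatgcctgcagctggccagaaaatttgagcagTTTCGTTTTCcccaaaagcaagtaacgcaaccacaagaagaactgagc
Slfn9: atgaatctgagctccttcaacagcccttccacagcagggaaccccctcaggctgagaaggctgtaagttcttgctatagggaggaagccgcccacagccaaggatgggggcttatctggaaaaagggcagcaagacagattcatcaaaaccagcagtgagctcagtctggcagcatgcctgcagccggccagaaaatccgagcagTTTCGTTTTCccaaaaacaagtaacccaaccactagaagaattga
Both hold the same 10 letters near the start, beginning at position -48 in Slfn8 and -45 in Slfn9, counted from the start. An alignment found 210 identical bases among the 250, with 24 gap positions. Of all 32851 promoter windows of this length, 2.98% held the motif. A promoter entry existed for 9 of the 10 Schlafen genes, and 3 held the motif (Slfn5, Slfn8 and Slfn9). Genes this alike can share probes, and although 0 of 28846 entries were marked as cross-hybridising, the split of signal between Slfn8, Slfn9 and Slfn10-ps is uncertain.

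Eps8l1 was the other large rise. It encodes a relative of the signalling adaptor Eps8, which links growth factor receptors to the remodelling of actin. The signal was 9.31, 9.88 and 9.12 in KO cTregs and 8.12, 6.71, 7.27 and 6.94 in controls. Control cTreg 1 again was the highest control, still below each KO array. The change was 2.18 (95% interval 1.62 to 2.73, limma adjusted P = 0.00306), or 4.52-fold, and in eTregs it was 2.27 (difference between subsets -0.09, 95% interval -0.88 to 0.69). The other 3 members of the family did not follow, with changes of 0.11 for Eps8, 0.08 for Eps8l2 and 0.06 for Eps8l3.

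RefSeq lists 3 starts for Eps8l1. The 250 bases before the most distal one (chr7:4460447-4460696, plus strand) are shown because they too hold the motif in capitals above, beginning at position -215.
Eps8l1: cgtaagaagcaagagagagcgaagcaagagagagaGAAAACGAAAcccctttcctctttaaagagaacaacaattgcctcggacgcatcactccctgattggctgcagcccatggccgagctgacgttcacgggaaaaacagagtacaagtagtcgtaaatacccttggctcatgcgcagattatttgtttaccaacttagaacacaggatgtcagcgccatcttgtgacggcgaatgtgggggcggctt
The windows of the other pair of starts, and of the second start of Slfn8, are not shown, and whether they hold it is not reported here. The arrays do not tell which start was used. Promoters of other genes, Tmem181a among them, were searched for this motif and are not shown. The printed interferon promoters therefore all hold the motif by selection.

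Tmem181a and its pseudogene copies were lower together. Tmem181a encodes a membrane protein of the G protein-coupled receptor type. It was at 10.40, 10.52 and 10.47 in KO cTregs and at 11.20, 11.20, 11.32 and 11.16 in controls, a change of -0.76 (limma adjusted P = 0.00838). Tmem181b-ps was at 10.42, 10.65 and 10.64 against 11.70, 11.59, 11.84 and 11.73. This fall had the smallest adjusted P of the 7, at -1.15 (limma adjusted P = 0.000108). Tmem181c-ps was at 8.83, 9.05 and 9.56 against 9.96, 10.34, 10.38 and 10.25, a change of -1.08 (limma adjusted P = 0.0498). In all 3 the KO arrays lay below the controls, in eTregs as in cTregs. The eTreg changes were -1.002, -1.19 and -1.46, and the differences between subsets had 95% intervals of -0.07 to 0.55, -0.27 to 0.36 and -0.17 to 0.93. Because these copies resemble each other, how their probes divide the signal is uncertain. The call of Tmem181a was lost without KO cTreg 1, 2 or 3 (adjusted P 0.0594, 0.0532 and 0.0582) or control cTreg 3 (0.0600). That of Tmem181c-ps was lost without any 1 array other than KO cTreg 3, KO eTreg 1 and control eTreg 1, with values up to 0.360.

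The Dynlt1 genes, which encode light chains of the motor protein dynein, lie among the Tmem181 copies on chromosome 17. All 4 were lower at an unadjusted P below 0.05, Dynlt1a by -0.36, Dynlt1b by -0.54, Dynlt1c by -0.44 and Dynlt1f by -0.43, and none passed the adjusted threshold. Together with the Tmem181 copies they are the 7 of 17 genes in this window that were lower at this P, against 2.03% of all clusters. The Dynlt1 genes are copies too and can share probes, so the 4 may not be separate readings. The Tmem181 copies had been called before the window was laid around them, so this count is not independent of the calls. The 4 genes before the block, Synj2, Serac1, Gtf2h5 and Tulp4, changed by -0.21 to -0.06. The 6 genes after it changed by -0.35 to 0.16, none with an unadjusted P below 0.05. In eTregs the Dynlt1 genes changed by -0.13 to -0.31.

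**Figure D3:**
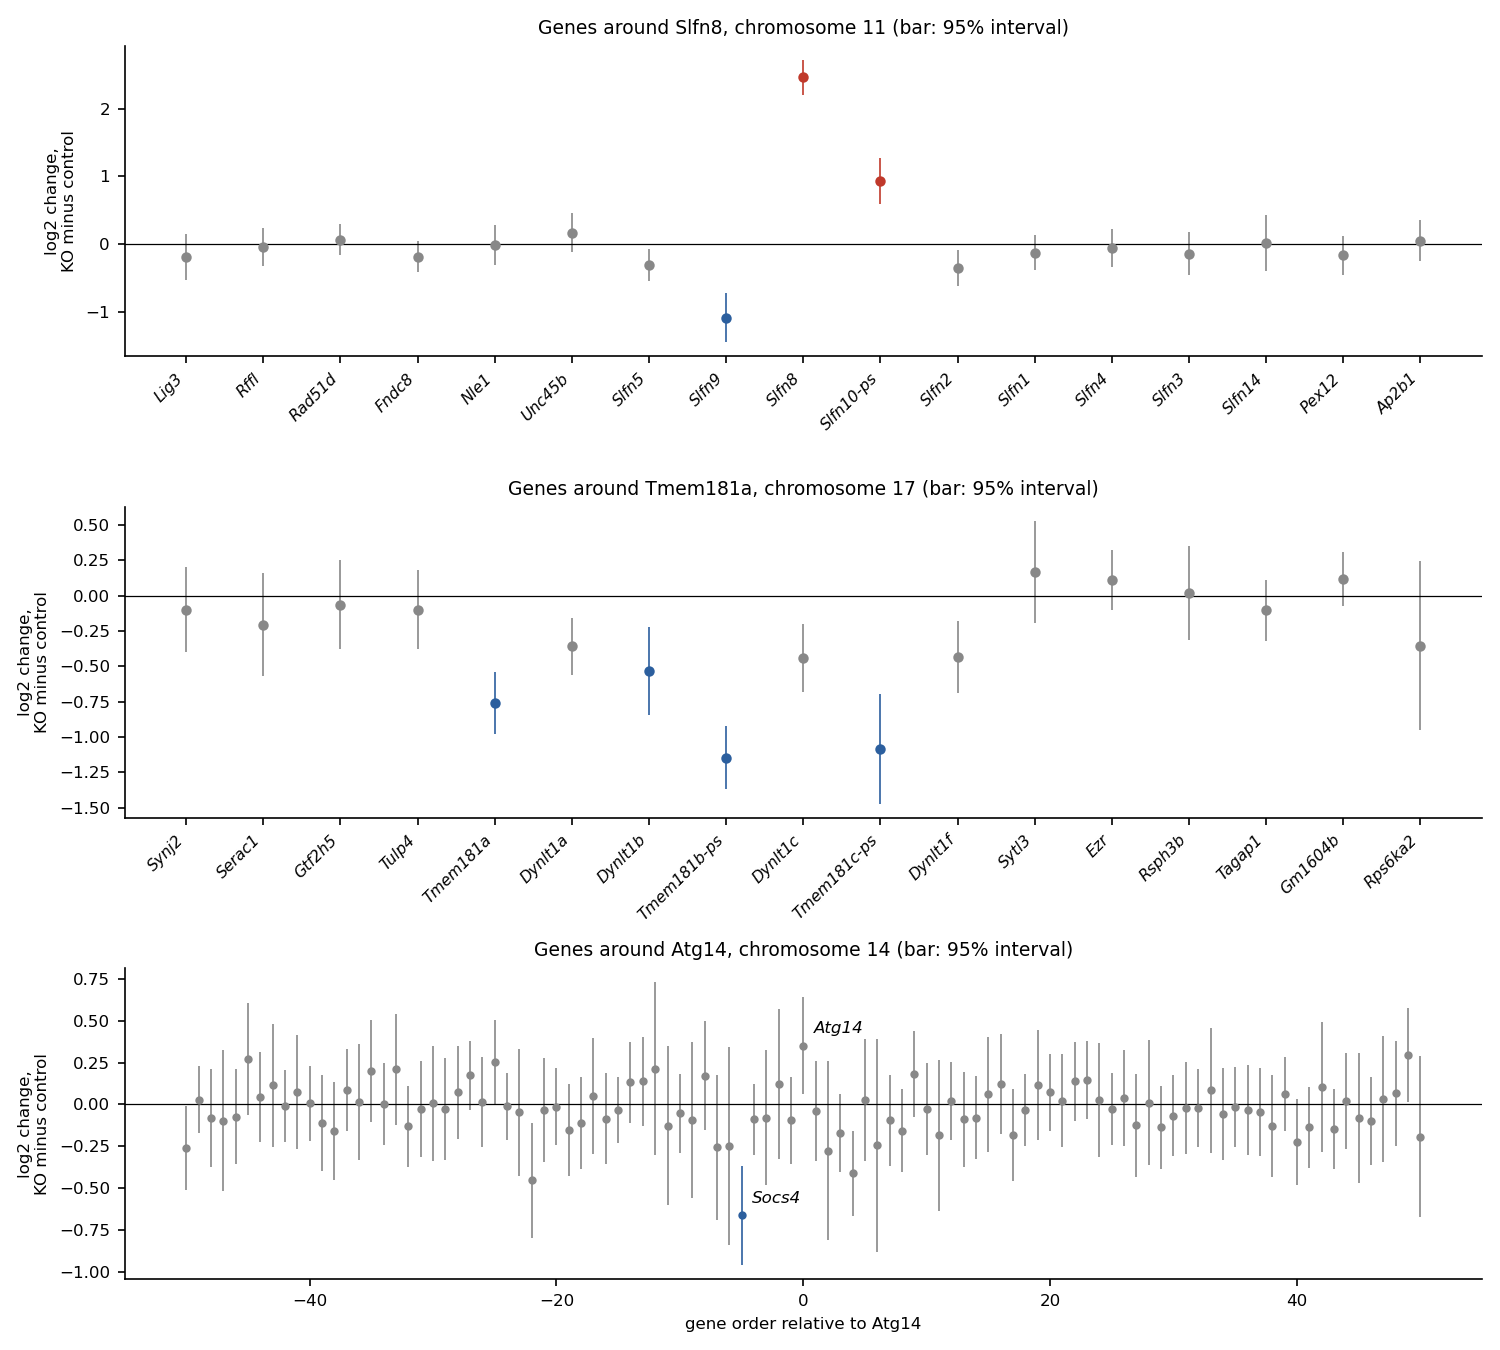
Log2 change from control to KO cTregs with its 95% interval (vertical axis) for genes in RefSeq order (horizontal axis) around Slfn8, Tmem181a and Atg14; red and blue mark genes higher and lower at the study threshold. Slfn9, Slfn8 and Slfn10-ps stand at -1.08, 2.46 and 0.93, between Slfn5 at -0.30 and Slfn2 at -0.35. A run of 7 adjacent genes from Tmem181a to Dynlt1f lies below 0, and around Atg14 Socs4 alone passes.

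Among 101 genes on chromosome 14, Atg14 with 50 on each side, 3 were higher and 4 lower at an unadjusted P below 0.05, Atg14 being 1 of the 3. Over all transcript clusters 1.98% were higher and 2.03% lower at this P, so the counts over all 101 are near that share. Many genes of the window, such as olfactory receptors, had low signals. Ptger2 and Tmem260 were among the 4 lower, at -0.45 and -0.41 without overlap, and changed by -0.46 and -0.50 in eTregs. On chromosome 14 as a whole 1 was higher and 9 lower at the study threshold (1.08%), Ppp1r3e among the lower. Chromosomes 11 and 17 had 1.1% and 1.22%. The part of position in these changes was not tested. Socs4, which encodes a suppressor of cytokine signalling and lies 5 genes from Atg14, was the sole gene of the window at the study threshold, at -0.66 (limma adjusted P = 0.308), without overlap.

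Rab6b, Ppp1r3e and 4930481A15Rik complete the called genes. Rab6b encodes a small GTPase of the Golgi, described mainly in neurons. It was at 8.38, 8.26 and 7.60 in KO cTregs and at 8.87, 9.56, 9.39 and 9.19 in controls, a change of -1.17 (limma adjusted P = 0.0498) and a 2.26-fold difference. Its ubiquitous relative Rab6a changed by -0.04, with overlapping arrays between 11.36 and 11.85. The effect on Rab6b in eTregs was -1.11. The call was lost without any 1 KO cTreg array (adjusted P 0.0594 to 0.278), any 1 control eTreg array (0.0775 to 0.0936), control cTreg 2, 3 or 4 (0.132 to 0.226) or KO eTreg 3 (0.0521).

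Ppp1r3e encodes a subunit that brings protein phosphatase 1 to glycogen. Its signal was 6.93, 7.01 and 6.90 in KO cTregs against 7.46, 7.85, 7.91 and 7.95 in controls, with control cTreg 1 the lowest control. The change was -0.84 (limma adjusted P = 0.0202) in cTregs and -0.48 in eTregs, where it was not called, and the difference between them (-0.37, 95% interval -0.75 to 0.01) did not pass. None of the other 6 glycogen-targeting subunits, Ppp1r3a to Ppp1r3g, had an unadjusted P below 0.05, with changes of -0.17 to 0.37. Leaving out any 1 KO cTreg array (adjusted P 0.0842 to 0.126) or control cTreg 2, 3 or 4 (0.0874 to 0.124) ended the call.

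The transcript 4930481A15Rik, on chromosome 19, was at 9.92, 10.01 and 10.05 in KO cTregs and at 10.97, 11.10, 11.08 and 10.96 in controls. No KO array came near the controls, and the change was -1.04 in cTregs (limma adjusted P = 0.00838) and -1.07 in eTregs. The call was lost without KO cTreg 1, 2 or 3 (0.0594, 0.0631 and 0.0511) or control cTreg 3 (0.0543).

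Beyond these 10, the largest changes without overlap passed the study threshold alone. 3830403N18Rik, an X-linked gene related to Xlr, was at 7.10, 8.34 and 8.39 in KO cTregs and at 6.01, 5.87, 6.55 and 6.05 in controls, where 3 of 4 arrays were at background. The change of 1.82 had a limma adjusted P of 0.166, and KO cTreg 1 was the lowest of its group. Masp2, a serine protease of the lectin complement pathway, was at 8.19, 9.22 and 9.28 against 7.52 to 8.15, a change of 1.104 (limma adjusted P = 0.218). Without KO cTreg 1 it was 1.46 and passed (limma adjusted P = 0.00400). Xlr, named after its values were seen, had the third largest rise at the study threshold, 1.86, but its KO arrays read 8.12, 6.70 and 10.57 and overlapped the controls at 6.48 to 6.73.

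The text names the 12 largest rises and 12 largest falls at the study threshold without overlap. The other rises were Sprr2j-ps, Stau2, Arrdc4, Kif15, Mtus2, Zfp300 and Klrb1f, between 0.66 and 0.97. Kif15, a mitotic kinesin, had a control mean of 5.82, below background, so the size of its change is not exact. Klrb1f, a lectin-like receptor of the NK gene complex, was at 7.77, 7.59 and 7.49 in KO cTregs against 6.71 to 7.13, a change of 0.66 (95% interval 0.30 to 1.02). Arrdc4, an arrestin-like gene that follows glucose supply, changed by 0.75 (0.16 to 1.34).

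Among the falls, Gm20481 on chromosome 17 was at 11.51, 10.04 and 10.30 in KO cTregs and at 12.08, 11.57, 12.23 and 11.98 in controls. KO cTreg 1 lay next to the controls and the others well below, and the change of -1.35 (limma adjusted P = 0.9999) became -1.79 without it. Kctd12b was at 6.38, 6.61 and 6.02 against 7.16 to 7.90, a change of -1.10 (limma adjusted P = 0.166), and in eTregs it changed by 0.08. The collagen cross-linking enzyme Loxl2 was at 7.16, 6.88 and 7.04 against 7.66 to 8.07, a change of -0.83 (limma adjusted P = 0.154). Gm10021 and Ehbp1, an adaptor of endosomal recycling, changed by -0.78 and -0.74.

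Of 9 genes of the Vps34 complexes 1, Atg14, was higher and 0 lower at an unadjusted P below 0.05, and the median change was -0.02, against 0.02 over all transcript clusters. Becn1, the shared scaffold, changed by 0.02, Pik3r4, the regulatory subunit, by 0.01, and Uvrag, which takes the place of Atg14 in complex II, by -0.02. Nrbf2 and Rubcn, which bind complex I and complex II, changed by -0.05 and -0.06, values whose sign turned when single arrays were left out. Among 39 transcript clusters of core autophagy genes, 0 were higher and 1 lower, against 1.98% and 2.03% of all transcript clusters. That 1 was Atg4a, a protease that processes Atg8 proteins, at 10.71, 10.59 and 10.86 in KO cTregs and 10.93 to 11.38 in controls, a change of -0.37 (95% interval -0.62 to -0.12). A second transcript cluster of Atg4a changed by -0.28, with overlap. The median of this list was -0.04, with 28 of 39 negative. Lysosomal genes (26 transcript clusters) had 0 at an unadjusted P below 0.05 in limma, with a median of 0.003 and changes of -0.41 (Asah1, acid ceramidase) to 0.14.

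Among heat shock genes 4 of 12 were lower on the KO side at an unadjusted P below 0.05, against 2.03% of all transcript clusters, and none passed adjustment. These chaperones refold proteins and are switched on by the factor Hsf1. Each of the 12 had a negative change, most of them with intervals that include 0, and the median was -0.24. Hspd1, the mitochondrial chaperonin, was at 10.61, 10.40 and 10.56 in KO cTregs and at 11.24, 10.91, 11.39 and 11.23 in controls. No array overlapped, and the change was -0.67 (95% interval -0.98 to -0.35, limma adjusted P = 0.377). Dnajb1, a cochaperone, also had no overlap, at 12.92, 12.57 and 12.71 against 12.96 to 13.29, a change of -0.43 (-0.71 to -0.14). Not all members separated. Hspa1a, an inducible Hsp70, was at 12.22, 10.68 and 10.82 against 12.26, 11.76, 12.50 and 12.49. KO cTreg 2 and 3 were low while KO cTreg 1 was level with control cTreg 1, and the change of -1.01 (95% interval -1.76 to -0.26) became -1.50 without KO cTreg 1. Hspa1b, the neighbouring copy, showed the same order, at 9.08, 8.23 and 8.32 against 8.74 to 9.46, with a change of -0.65, and signal cannot be divided surely between such near-identical copies.

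The constitutive members moved less. Hspa8 changed by -0.09, Hsp90aa1 by -0.11, Hsp90ab1 by -0.15 and Hspa5, the chaperone of the endoplasmic reticulum, by -0.19. In eTregs 4 of 12 were lower too, with a median of -0.22, and there KO eTreg 1 read 12.26 for Hspa1a while KO eTreg 2 and 3 read 10.69 and 11.34. The count of 4 in cTregs was 2 without KO cTreg 2 and lay between 3 and 6 under the other alternatives. Gm20481, described above, had this order of arrays as well.

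**Figure D4:**
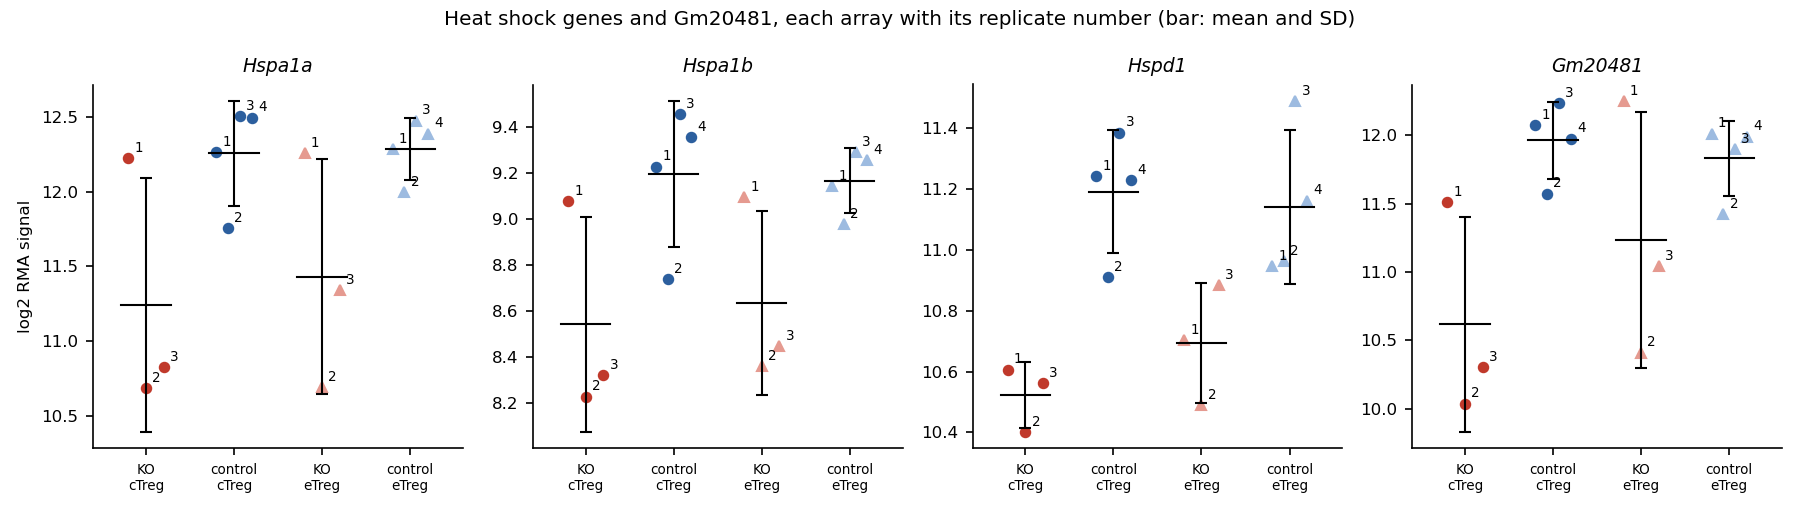
Log2 signal (vertical axis, scaled to each gene) of Hspa1a, Hspa1b, Hspd1 and Gm20481 on each array, with its replicate number and the mean and SD of each group (circles, cTregs; triangles, eTregs). For Hspa1a, KO replicate 1 reads 12.22 and 12.26, beside the controls, while KO replicates 2 and 3 read 10.68 to 11.34.

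The Hsf1 binding letters were searched in the same 250-base windows on both strands, spelt GAA, any 2 bases, TTC, any 2 bases, GAA (or TTC, any 2 bases, GAA, any 2 bases, TTC). They occurred in 0.466% of all windows. Counted by gene, with at least 1 window matching, 2 of the 9 heat shock genes with an entry held them. These were Hspd1 and Hspe1, which face each other across 1 shared stretch. A segment of 30 bases of it, read on the strand of Hspd1 (RefSeq, GRCm38.p6, chr1:55088053-55088082, minus strand), shows a pair of overlapping matches in capitals.
Hspd1: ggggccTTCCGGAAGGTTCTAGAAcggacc
Hspe1, which encodes the partner cochaperonin, changed by -0.11 (95% interval -0.34 to 0.11) where Hspd1 changed by -0.67.

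Interferon-stimulated genes leaned the other way. They encode antiviral effectors and the guanylate-binding and immunity-related GTPases. Of 32 measured, 8 were higher and 0 lower at an unadjusted P below 0.05, against 1.98% higher among all transcript clusters. In this list 27 had a positive change, and the median was 0.15. Rtp4 alone reached the study threshold, at 9.17, 9.76 and 9.95 in KO cTregs against 9.04, 9.41, 8.998 and 9.01, a change of 0.51 with overlap at KO cTreg 1. Igtp, 1 of the immunity-related GTPases, was at 11.88, 12.02 and 12.03 against 11.36, 11.70, 11.56 and 11.80. All KO arrays exceeded the controls, by 0.37 in the mean (95% interval 0.12 to 0.62). Oasl2 and Cmpk2 had no overlap either, each with a change of 0.34. Gbp2, Gbp3, Ifit1 and Ifit3 changed by 0.47, 0.41, 0.49 and 0.40, with overlapping arrays. Against these, Stat2 changed by -0.09, Irf9 by 0.12 and Xaf1 by -0.22. No member passed adjustment over all transcript clusters. The count of 8 was 5 without KO cTreg 2 and 4 with a filter at the 60th percentile of signal, which drops list members.

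The promoter of Igtp (RefSeq, GRCm38.p6, chr11:58199306-58199555, plus strand) is shown as the example of this list, with the interferon motif in capitals at position -34.
Igtp: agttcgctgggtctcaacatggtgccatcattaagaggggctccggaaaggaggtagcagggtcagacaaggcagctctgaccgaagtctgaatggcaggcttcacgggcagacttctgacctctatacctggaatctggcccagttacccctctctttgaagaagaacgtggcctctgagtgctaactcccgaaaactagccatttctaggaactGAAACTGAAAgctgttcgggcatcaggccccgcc
Of 23 list genes with a promoter entry, 14 held the motif in at least 1 window. The 2.98% given above is a share of windows, and genes can have several, so these rates are not like for like. Of the 8 genes that were higher, Igtp, Gbp2, Gbp3, Ifit1 and Ifit3 were among those 14, and Rtp4 had no promoter entry. The motif was common over the whole list, so holding it does not mark out the genes that were higher.

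Mean signals of monocyte and dendritic cell markers were also higher and are given beside this list. Bst2 is a member of both the dendritic cell and the interferon list. The mean signal of 15 monocyte and macrophage genes was 8.16 to 8.25 in KO cTregs and 7.92 to 8.11 in controls, and that of 12 dendritic cell genes 8.95 to 8.998 against 8.84 to 8.92, without overlap in either list. In both lists 0 genes had an unadjusted P below 0.05 in limma, none of the genes had a mean below the background median, and the medians were 0.16 and 0.06. The largest changes were 0.65 for Cybb, a subunit of the phagocyte oxidase, and 0.55 for Lyz2, lysozyme. Cybb was at 8.67 in KO cTreg 2 and 7.67 in the other KO arrays, and its change was 0.32 without KO cTreg 2. The interferon list itself had means of 10.02, 10.21 and 10.21 in KO cTregs and 9.90, 10.10, 9.93 and 9.96 in controls. The part of such cells in the interferon counts was not tested. In bulk RNA, more cells of a type and more RNA per cell cannot be told apart.

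Other lists showed overlapping ranges. The mean of 11 B cell transcript clusters was 8.15 to 8.28 in KO and 7.92 to 8.27 in control cTregs, with 1 at an unadjusted P below 0.05, and that of 7 plasma cell genes 8.20 to 8.48 against 7.82 to 8.31. All 7 plasma cell genes had a positive change, with a median of 0.20, and Irf4 (0.43), which plasma cells also express, was the 1 at an unadjusted P below 0.05. Jchain, the joining chain of secreted antibodies, changed by 0.77 (95% interval -0.55 to 2.09), and by 0.48 without KO cTreg 2 or 1.18 without control cTreg 4. Neutrophil genes (10) were at 7.40 to 7.61 against 7.46 to 7.60, platelet genes (5) at 8.96 to 9.28 against 9.06 to 9.21, and CD8 T and NK cell genes (11) at 8.02 to 8.37 against 7.98 to 8.24. S100a8 (0.38) and Ccl5 (0.32) had an unadjusted P below 0.05, as had Klrd1 (-0.66). The shares at this P over all transcript clusters were 1.98% higher and 2.03% lower. S100a8 was highest in KO cTreg 2, without which its change was 0.10. Erythroid genes (9) were at 8.10 to 9.17 against 8.78 to 9.42. Hbb-bs, a beta globin, ranged from 7.37 to 11.32 in KO and from 10.08 to 12.02 in control cTregs, a change of -1.57 (95% interval -3.43 to 0.29) that moved to -2.43 when KO cTreg 1 was left out and to -0.46 when KO cTreg 3 was.

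Of 22 genes of sterol synthesis and uptake, 3 were lower and 0 higher at an unadjusted P below 0.05, against 2.03% lower among all transcript clusters, and none passed adjustment. In this list 19 had a negative change, and the median was -0.21. Sqle, which makes squalene epoxide, was at 9.20, 8.90 and 9.04 in KO cTregs and at 9.63, 9.50, 9.57 and 9.57 in controls, a change of -0.52 (95% interval -0.81 to -0.24, limma adjusted P = 0.832). Fdps, farnesyl diphosphate synthase, was at 10.58, 10.67 and 10.55 against 10.84 to 11.37, a change of -0.45 (-0.75 to -0.14). Neither had overlapping arrays. Lss, lanosterol synthase, changed by 0.13. In eTregs the median of the list was -0.02. The count of 3 was 5 with the 7 cTreg arrays alone, with array weights, with a variance trend or without control cTreg 2, and 7 without KO cTreg 2.

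**Figure D5:**
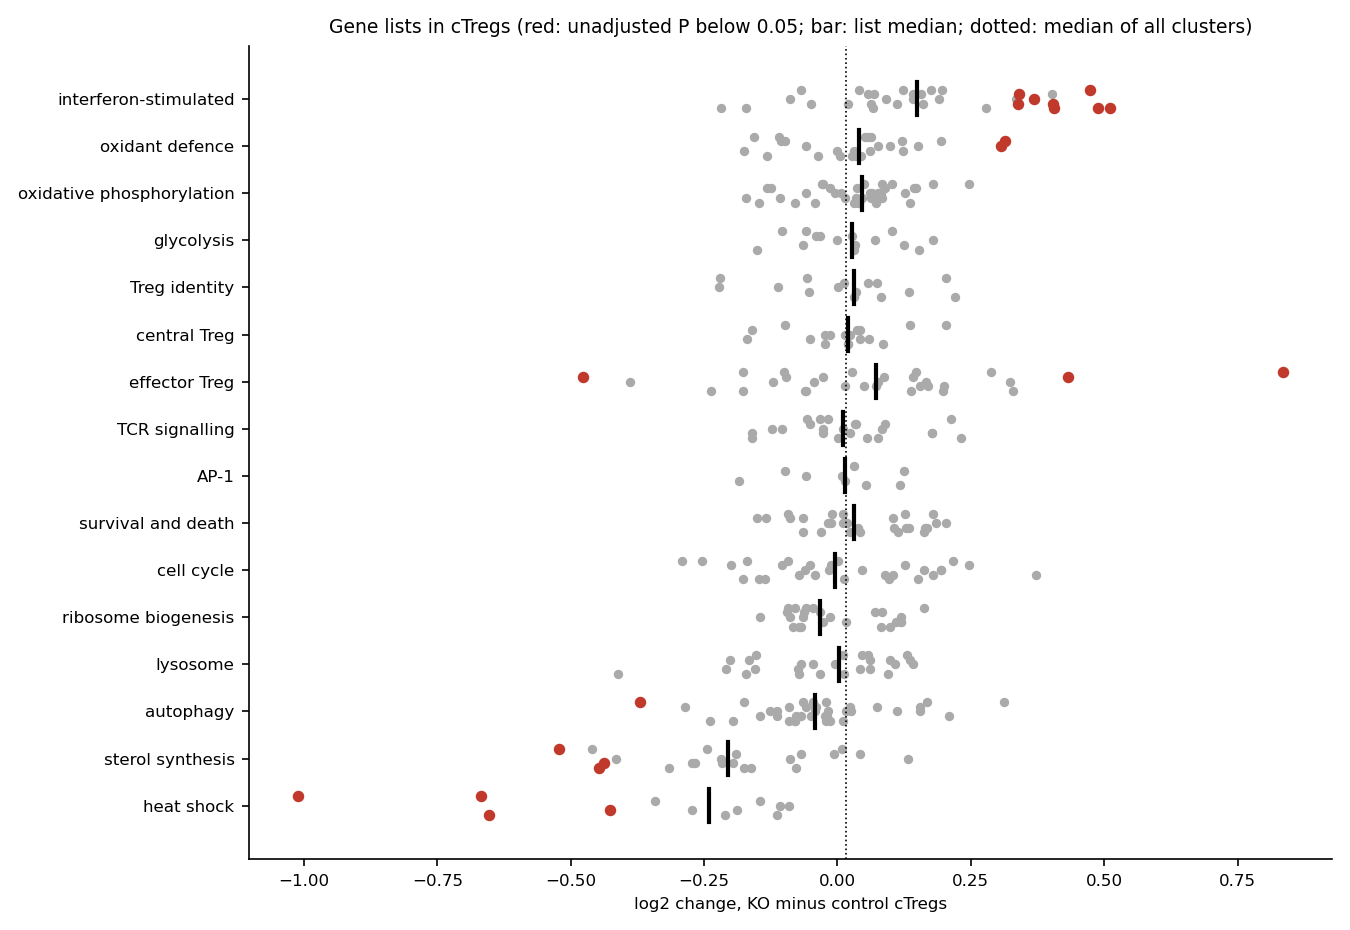
Log2 change from control to KO cTregs (horizontal axis) of each gene in 16 lists, with red points for an unadjusted P below 0.05, a bar for the median of each list and a dotted line for the median over all transcript clusters, 0.02. Heat shock and sterol genes lie mostly left of the line, with medians of -0.24 and -0.21, and interferon-stimulated genes mostly right, with a median of 0.15.

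Of the lists of Treg identity and state, the effector list alone had members at an unadjusted P below 0.05. The 15 identity genes, 18 central Treg genes, 23 T cell receptor signalling transcript clusters and 9 AP-1 genes each had 0 with an unadjusted P below 0.05 in limma, with medians of 0.03, 0.02, 0.01 and 0.01. The largest changes among identity genes were 0.22 for Capg, -0.22 for Nt5e, which encodes CD73, and -0.22 for Gpr83. For Bach2, a repressor that holds Tregs in the central state, the change was -0.17 (95% interval -0.46 to 0.12). Of 31 effector Treg transcript clusters 2 were higher and 1 lower at an unadjusted P below 0.05, with a median of 0.07, and none passed adjustment. The shares over all transcript clusters were 1.98% and 2.03%. Itgae, which encodes the integrin CD103, passed the study threshold. It was at 9.58, 10.13 and 10.36 in KO cTregs and at 8.78, 9.22, 9.13 and 9.63 in controls, a change of 0.83 (95% interval 0.27 to 1.40) with overlap at KO cTreg 1. Irf4, a driver of the effector program, changed by 0.43 (0.03 to 0.84), with KO arrays at 9.22, 9.65 and 9.74 and controls at 8.77, 9.26, 9.19 and 9.20. The plasma cell list given above, which holds Irf4, was positive in all its members, and the part of such cells in this change was not tested. Rora, a nuclear receptor, changed by -0.48 (-0.81 to -0.15) in 1 transcript cluster, without overlap, and by -0.10 and 0.32 in the other two.

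Metabolic and growth programs gave no member at the study threshold. Oxidative phosphorylation (39 transcript clusters), glycolysis (15 genes), ribosome biogenesis (25), cell cycle (30) and survival and death genes (28) had 0 with an unadjusted P below 0.05 in limma, with medians of 0.05, 0.03, -0.03, -0.005 and 0.03. The 95% interval limit farthest from 0 in these lists was 1.38 in size, for a cell cycle gene, so single genes are not measured closely. Against 1.98% higher among all transcript clusters at an unadjusted P below 0.05, 2 of 26 oxidant defence genes were higher. They were Prdx6, a peroxiredoxin, at 10.64, 10.76 and 10.73 against 10.31 to 10.58, and Slc7a11, the cystine transporter, with a change of 0.31 each.

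Whether effects in cTregs differed from those in eTregs was tested by the interaction. No interaction passed after adjustment by limma (smallest adjusted P = 0.107), and 1358 had an unadjusted P below 0.05 (6.12%). Of the 128 at the study threshold in cTregs, 85 had the same sign in eTregs and 41 an unadjusted interaction P below 0.05. These 128 were chosen by their change in cTregs, which is part of the interaction. The 41 are therefore not comparable with the 6.12%, and the share of same signs over all transcript clusters was not counted. Klrd1, an NK cell receptor chain, changed by -0.66 in cTregs and by 1.17 in eTregs. Sprr2j-ps changed by 0.97 and -0.76, and Kctd12b by -1.10 and 0.08, each with an unadjusted interaction P below 0.05. KO eTreg 2 and 3 had monocyte and macrophage list means of 10.38 and 10.33 where the other eTreg arrays had 8.45 to 9.08, and the part of this in the interaction was not tested. Without KO eTreg 1 the adjusted count was 207.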

How the data were processed

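RNA of 14 sorted Treg samples was read on Clariom S mouse arrays. The authors deposited 1 matrix of log2 signals, summarised and normalised by RMA in Affymetrix Expression Console 1.1 per the submitters' processing notes, and its values were used as deposited. The annotation build of the array identifiers was not given in the sources used here. Of 28846 entries, 6640 control probe sets and 3 without a symbol were left out, leaving 22203 transcript clusters. Array names in the matrix were matched to samples by their descriptions. The number of arrays limits the precision.

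One model with 4 group means over 14 arrays was fitted in limma 3.58.1 (R 4.3.3, 10 residual degrees of freedom), with Benjamini-Hochberg adjustment over all transcript clusters. Intervals are 95%. The study threshold follows the methods (log2 change of 0.5, 1.41-fold, unadjusted P below 0.05). Named were Atg14, the sort genes, each gene past the adjusted threshold, the 12 largest rises and falls without overlap at the study threshold, and members of 31 lists by threshold and then P. Members and lists were chosen with earlier results of these data known. Promoters, names and gene order came from RefSeq (GRCm38.p6), which matched 92.62% of clusters (20564). Figures used matplotlib 3.10.9 and alignments Biopython 1.88.

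Samples were grouped by label. Alternatives were the cTreg arrays alone, array weights, a variance trend, filters on low signal, other centring, quantile normalisation, the replicate number as a block, and leaving out each array. List counts under each were added after seeing the data. The main fit took all arrays as independent and did not use replicate numbers as pairs. Same-numbered KO and control cTregs had deviations correlated at 0.258, 0.160 and 0.082. Between same-numbered cTreg and eTreg arrays the correlations were 0.303, 0.290 and 0.044 in KO and 0.222, 0.146, 0.102 and 0.071 in control. Fits with the number as a block are given below. Results for some genes are not reported here.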

Additional observations from a re-analysis of the deposited data

Results flagged for a closer look

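In all, 6 values among the 119 transcript clusters checked stood far from the other arrays of the 4 control cTregs, a number to set beside the 5% of groups in which chance alone gives such a gap. Control cTreg 1 read 9.649 for Slfn8, against 9.177 to 9.245 on the other arrays, which leaves it below each KO array. The same array read 8.766 for Irf4, against 9.194 to 9.26. Control cTreg 2 read 7.214 for Zfp300, against 6.668 to 6.734, and 9.415 for Rtp4, against 8.998 to 9.044. It also read 7.499 for Kif11, against 7.67 to 7.7. Control cTreg 4 read 8.982 for Alas2, against 9.197 to 9.219.

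Sprr2j-ps, a pseudogene of the epidermal Sprr2 family, changed by 0.97 in cTregs and by -0.76 in eTregs. KO cTregs were at 10.67, 10.62 and 10.31 against 9.16, 9.28, 9.59 and 10.24, above all controls, and the eTreg arrays separated the other way. The difference between the subsets was 1.72 (95% interval 1.03 to 2.41, limma adjusted P = 0.254).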

How the results depend on the processing

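With a filter at the 60th percentile of signal, which tests 8881 transcript clusters, 49 passed the study threshold in cTregs, 479 did not overlap and 226 passed the study threshold for the interaction. With array weights 3 interactions passed adjustment, with array medians subtracted 1. The replicate number gave 6 adjusted calls as a fixed replicate block (144 at the study threshold), and as a random replicate block 8 adjusted calls and 2 interactions. The fixed replicate block ended the calls of Slfn9 (limma adjusted P = 0.142), Rab6b and Tmem181c-ps (0.0839 for both) and Ppp1r3e (0.0826), the random replicate block those of Slfn9 and Tmem181c-ps (0.0514 for both). Each KO cTreg deviated most like the control of its own number, a hint from the data and not from the design. Leaving out 1 array gave 125 to 314 at the study threshold, 3 to 10 adjusted calls, 1610 to 3295 without overlap (groups being smaller), 499 to 1430 interactions at the study threshold and 0 to 207 adjusted ones, the highest of both without KO eTreg 1. Adjusted calls fell to 4, 3 and 4 without KO cTreg 1, 2 and 3, to 5, 3 and 5 without control cTreg 2, 3 and 4, and to 6 without control eTreg 2, 3 or 4. Sign changed for genes that had not been called. With array weights Pik3c3 read 0.024 and Nrbf2 0.037, with quantile normalisation Eif2s3y read -0.0057, and with the fixed replicate block Rubcn read 0.058. Leaving out 1 array gave -0.20 to 0.048 for Pik3c3, -0.11 to 0.042 for Nrbf2, -0.28 to 0.084 for Rubcn, -0.26 to 0.060 for Il2ra, -0.017 to 0.15 for Foxp3, -0.0018 to 0.38 for Igfbp4, -0.0018 to 0.19 for Pes1, -0.0069 to 0.20 for Blk, -0.32 to 0.019 for Gp1bb, -0.036 to 0.31 for Kdm5d, -0.24 to 0.060 for Ddx3y and -0.022 to 0.096 for Eif2s3y. The cause of these moves was not tested. Atg14 stayed between 0.25 and 0.46. Near background (6.14), changes are compressed and their size is uncertain.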
